A study of Mus musculus with 2 samples.

Results

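The genes described here are Gad1, Gad2, Slc32a1, Slc6a11 and Abat, which make, store, take up and break down the inhibitory transmitter GABA. They were chosen by name and function, by a rule that uses no measured value though earlier results of these data were known, and are 5 of the 21938 protein-coding genes of GENCODE M21. The data are DNase-seq maps of accessible chromatin from left cerebral cortex, taken from 2 male B6CASTF1/J mice, F1 hybrids of a C57BL/6J and a CAST/EiJ parent, aged 2 months. Both mice belong to 1 group, biological replicates 1 and 2, with 1 library each and no treatment named in the labels, so the values below compare genes and libraries and no test between groups was made. The labels number the animals separately but give both the same donor record, so an SD with n = 2 measures only the spread between these libraries. The tissue was whole cortex. A low peak from a few cells with open chromatin and one from weak opening in many cells cannot be told apart.

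GABA is made from glutamate by glutamate decarboxylase, whose 2 isoforms are encoded by Gad1, the form found throughout the neuron, and Gad2, the form concentrated at nerve terminals. Slc32a1 encodes the transporter that loads GABA, and in other neurons glycine, into synaptic vesicles. Slc6a11 encodes the plasma membrane transporter GAT3, best known from astrocytes. Abat encodes GABA transaminase, the mitochondrial enzyme that begins GABA breakdown and is active in many cell types. In the cortex, Gad1, Gad2 and Slc32a1 are markers of inhibitory interneurons, a minority of its neurons.

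DNase I cuts open chromatin, and a peak is a stretch with many cuts. Its height is the authors' signal value, on a scale that was not given in the sources used here. A footprint is a short protected stretch inside open chromatin, deposited as positions only. For each library a shorter peak list (63928 and 76440 peaks in replicates 1 and 2) and a longer one (108421 and 127162 peaks) were deposited. Values are from the shorter lists unless the longer ones are named. A gene's promoter was the window of 500 bp up and down from each of its transcription start sites (TSSs), and a region was called distal when no TSS of any gene was within 2000 bp. Markers of several cell types had promoter peaks, and these counts are to be read against the 61.6% and 57.1% of all protein-coding genes with a promoter peak in replicates 1 and 2. Such peaks were found in replicates 1 and 2 at 8 and 3 of 8 excitatory neuron markers, at 8 and 8 of 12 inhibitory neuron markers, at 7 and 6 of 8 astrocyte markers, at 5 and 5 of 8 oligodendrocyte markers, at 9 and 8 of 10 striatal markers and at 3 and 2 of 8 markers of meninges and fibroblasts.

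All 5 genes had a promoter peak in replicate 1, where 61.6% of protein-coding genes had one, and only Abat had one in replicate 2, where 57.1% had one. Abat was therefore the 1 gene of the 5 with a promoter peak in both libraries, against 56.2% of all genes. The other 4 had a peak in replicate 1 alone, a class that held 5.37% of all genes. In the longer lists all 5 had a promoter peak in both libraries, against 61.0% of all genes. The pattern in replicate 2 was thus one of peaks that were present in the longer list and missing from the shorter one.

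**Figure D1:**
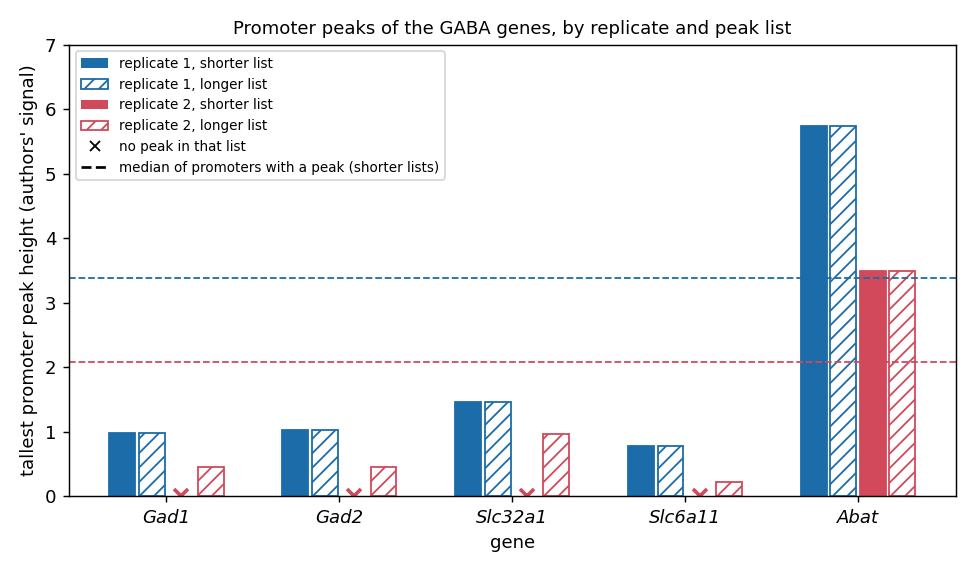
Height of the tallest promoter peak of each gene (vertical axis, authors' signal) in the shorter and longer lists of both replicates. Abat stands at 5.73 and 3.49, and the other 4 genes lie between 0.777 and 1.47 in replicate 1 and between 0.223 and 0.966 in the longer list of replicate 2.

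Among the genes that make GABA, Gad1 (ENSMUSG00000070880.10, chr2:70553072-70602014 of mm10, plus strand, 7 TSSs) had a promoter peak of height 0.984 in replicate 1 and none in replicate 2. The peak, 295 bp wide at chr2:70562021-70562315, lay over the TSS at 70562042 and not over the first annotated TSS at 70553072. The longer list of replicate 2 held a peak of 0.452 there, 76 bp wide and 7 bp from the TSS at 70562163. Gad2 (ENSMUSG00000026787.3, chr2:22622205-22693874, plus strand, 2 TSSs) had a peak of 1.02 over its first TSS in replicate 1, with further peaks of 0.509 and 0.419 near its other TSS. Replicate 2 had none of them, and its longer list gave 0.452 in a peak of 148 bp. Both decarboxylase genes were thus low in replicate 1 and lower in replicate 2.

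Slc32a1, the vesicle loading gene (ENSMUSG00000037771.11, chr2:158610767-158615748, plus strand, 1 TSS), had the tallest promoter peak of the 4 genes that lacked one in replicate 2, with 1.47 and 1.31 in replicate 1 in a pair of adjoining peaks. The lower peak covered the TSS, and the taller began 34 bp downstream of it. The longer list of replicate 2 gave 0.966 in a 172 bp peak that overlapped the lower of the pair. Slc6a11, the astrocyte transporter gene (ENSMUSG00000030307.8, chr6:114131241-114249952, plus strand, 2 TSSs), was the lowest of the 5. Its peak of 0.777 in replicate 1 was followed by one of 0.643, and the longer list of replicate 2 held 0.223 in an 86 bp peak that lay 454 bp from the TSS and did not overlap either. For Slc6a11 the longer list of replicate 2 therefore shows opening within the promoter window but not at the place seen in replicate 1.

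Abat (ENSMUSG00000057880.12, chr16:8513429-8621568, plus strand, 7 TSSs) had a single tall peak over its first group of TSSs, 5.73 in replicate 1 and 3.49 in replicate 2. Its later TSSs at 8572902, 8583627 and 8612878 had no peak in either library. Among genes with a promoter peak, Abat stood at percentile 77.3 in replicate 1 and 74.7 in replicate 2. In replicate 1, Slc32a1 stood at percentile 20.97, Gad2 at 12.8, Gad1 at 11.9 and Slc6a11 at 7.70. The median promoter height over 13503 genes in replicate 1 was 3.38, with quartiles of 1.71 and 5.51, so the 4 transmitter genes lay below the lower quartile.

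In the longer lists, which give a value for every gene in both libraries, the mean height was 4.61 ± 1.59 (SD, n = 2) for Abat, 1.22 ± 0.355 (SD, n = 2) for Slc32a1, 0.738 ± 0.404 (SD, n = 2) for Gad2, 0.718 ± 0.376 (SD, n = 2) for Gad1 and 0.49998 ± 0.392 (SD, n = 2) for Slc6a11. Abat was above the other 4 in both libraries. The Gad1, Gad2 and Slc6a11 means lay within 1 SD of each other, but Slc6a11 was below Gad1 and Gad2 in both libraries. Its heights were 0.777 and 0.223 in replicates 1 and 2, against 0.984 and 0.452 for Gad1 and 1.02 and 0.452 for Gad2. Heights in replicate 2 were lower for most promoters, with a median log2 ratio of replicate 2 over replicate 1 of -0.77 over the 13379 genes with a peak in both longer lists (5th to 95th percentile -1.39 to 0.03). The ratio was -0.72 for Abat, near that median. It was -0.60 for Slc32a1, from tallest peaks that did not overlap, and the replicate 1 peak that did overlap was 1.31 against 0.966. It was -1.12 for Gad1 and -1.18 for Gad2, with 18.2% and 14.3% of genes lower. Slc6a11, at -1.80, was the only one of the 5 below the 5th percentile, with 0.426% of genes lower, and its peaks in the longer lists did not overlap.

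Of the 1803 genes whose replicate 1 promoter height lay between 0.777 and 1.47, the range of the 4 genes without a peak in replicate 2, 72.7% had a promoter peak in replicate 2 and 92.3% had one in its longer list. The 4 genes were singled out for their lack of a replicate 2 peak, so these shares describe other promoters of that height and are no test of the 4. CpG content gives another reference. Gad1, Slc32a1 and Slc6a11 fall in a bin of 1097 genes by observed over expected CpG in which 93.8% had a promoter peak in replicate 1 and 86.8% in replicate 2. Gad2 falls in a bin with 86.7% and 78.5%, and Abat in one with 73.9% and 64.1%.

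The deposited false discovery rate (FDR) track, which lists only stretches with an FDR under 0.05, covered some of each promoter window in both libraries. Of all genes, 66.7% had such a stretch at the promoter in replicate 1 and 63.1% in replicate 2, and all 5 genes had one in each. The lowest FDR at Abat was 1.37e-75 in replicate 1 and 1.22e-46 in replicate 2. At Slc32a1 it was 8.65e-13 and 0.00123, and at Gad2 9.06e-11 and 0.00934. At Slc6a11 it was 3.38e-06 and 0.0162, and at Gad1 3.08e-06 and 0.026. Footprints in the promoter windows numbered 14 and 0 at Gad1, 12 and 0 at Gad2, 9 and 1 at Slc32a1, 6 and 0 at Slc6a11, and 6 and 5 at Abat in replicates 1 and 2. Only Abat kept nearly as many footprints in replicate 2.

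The reference sequence (C57BL/6J, mm10, plus strand) just upstream of 3 of the starts is shown to compare the promoter open in both libraries with 2 that were low. For Abat (chr16:8513261-8513428) capitals mark bases in footprints of both replicates. For Slc6a11 (chr6:114131102-114131240) and Slc32a1 (chr2:158610661-158610766) they mark bases in footprints of replicate 1.
Abat: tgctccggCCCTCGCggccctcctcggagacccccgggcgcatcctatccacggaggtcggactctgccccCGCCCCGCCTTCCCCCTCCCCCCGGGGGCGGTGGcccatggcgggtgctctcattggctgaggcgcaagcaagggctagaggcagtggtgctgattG
Slc6a11: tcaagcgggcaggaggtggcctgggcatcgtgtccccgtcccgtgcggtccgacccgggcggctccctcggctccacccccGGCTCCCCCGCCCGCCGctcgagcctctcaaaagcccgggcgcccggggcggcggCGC
Slc32a1: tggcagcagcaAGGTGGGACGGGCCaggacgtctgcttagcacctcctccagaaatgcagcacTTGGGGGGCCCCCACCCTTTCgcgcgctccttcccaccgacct
These stretches are rich in G and C, with a GC content of 72.6% at Abat, 79.9% at Slc6a11 and 66.04% at Slc32a1. The GC box GGGCGG, the core recognised by Sp1 family factors, was searched on both strands and occurred 2 times at Abat, 3 times at Slc6a11 and not at Slc32a1. At both Abat and Slc6a11, 1 of these lay wholly within capitals. Among 32851 RefSeq promoters of 300 bp (around the start, mm10), 35.7% held a GC box. The longest footprint stretch shared by both libraries at Abat was 34 bp, at chr16:8513332-8513365.

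Distal accessibility was found in the loci of all 5 genes in both libraries. A locus was taken as the gene body and 50 kb on both sides, and a shared distal region as overlapping distal peaks of both replicates. Such regions were present in 5 of 5 loci, against 65.6% of those of all protein-coding genes, and there were 22 in total: 8 at Slc6a11, 6 at Abat, 3 at Gad1, 3 at Gad2 and 2 at Slc32a1. Per 100 kb of locus this came to 3.66, 2.88, 2.01, 1.75 and 1.91, against a median of 0.886 over all genes. Slc6a11 stood at percentile 94.95 and Abat at 90.2 of that density, and Gad1, Slc32a1 and Gad2 at 80.6, 77.4 and 72.5. The 2 loci with the densest distal accessibility thus were those of Slc6a11, with the lowest promoter of the 5, and Abat, with the highest. In 11 of the 22 regions the nearest TSS of a coding gene was that of the gene itself. These were 5 of 6 at Abat, 3 of 8 at Slc6a11, 2 of 3 at Gad1, 1 of 3 at Gad2 and 0 of 2 at Slc32a1. The counts and densities therefore include regions nearer to other coding genes, and which gene a region acts on was not tested.

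**Figure D2:**
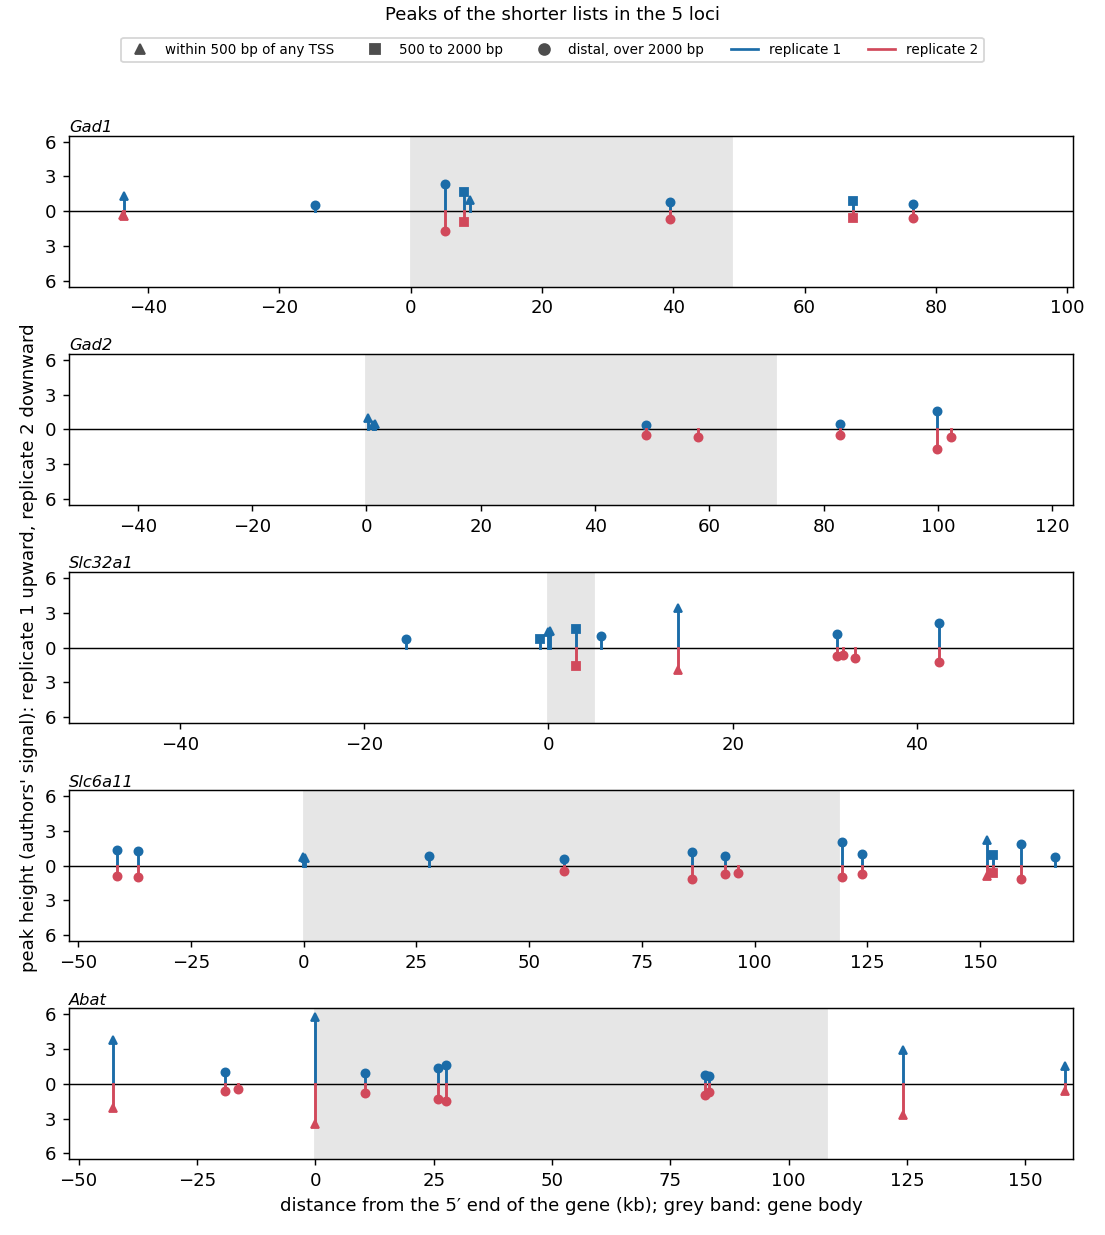
Peaks of the shorter lists at each locus, by distance from the gene's 5′ end in kb (horizontal axis) and height (vertical axis, authors' signal, replicate 1 upward and replicate 2 downward). Symbols give the distance class from any annotated TSS, neighbouring genes included, and the grey band is the gene body. At the Gad1, Gad2, Slc32a1 and Slc6a11 starts only replicate 1 has promoter peaks.

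**Figure D3:**
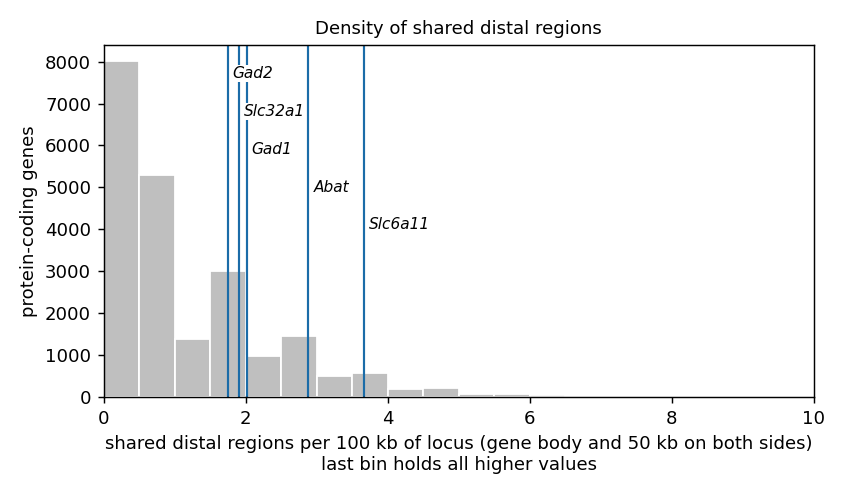
Histogram of shared distal regions per 100 kb of locus (horizontal axis) over the protein-coding genes (vertical axis), with a line for each of the 5 genes. All 5 lines, from 1.75 to 3.66, lie above the median of 0.886.

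Of the 22 regions, 11 lay in the body of the gene, 3 upstream and 8 downstream. By annotation 12 were intronic, 10 intergenic and 0 exonic. The median log2 ratio of replicate 2 over replicate 1 was -0.20, and over all 23895 shared distal regions it was also -0.20. Replicate 2 was the higher in 6 of the 22, against 38.2% of all shared distal regions. Median heights were 1.08 and 0.864 in replicates 1 and 2, against 0.894 and 0.817 over all of them. A further 5 distal peaks were found in replicate 1 alone, 4 of them with a peak in the longer list of replicate 2, and 6 in replicate 2 alone, 3 of them in the longer list of replicate 1.

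**Figure D4:**
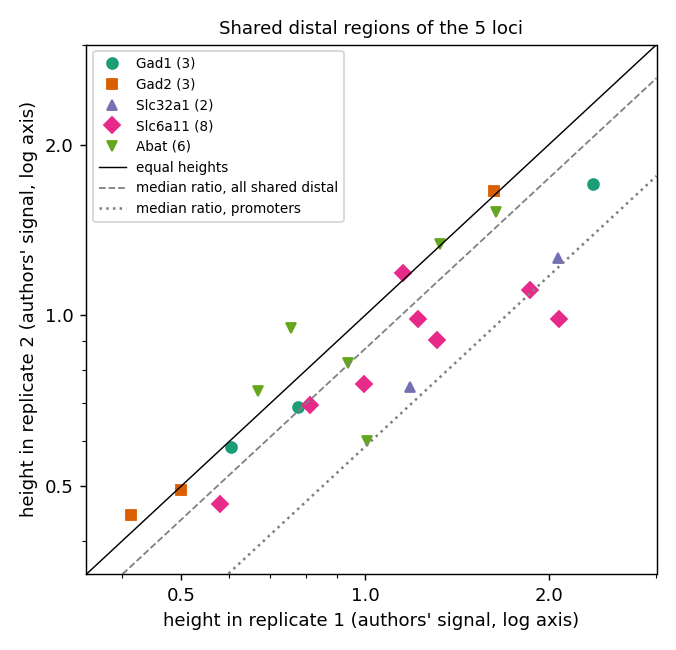
Heights of the 22 shared distal regions in replicate 1 (horizontal axis) and replicate 2 (vertical axis), authors' signal, by gene. They run from 0.414 to 2.37 in replicate 1 and from 0.446 to 1.70 in replicate 2, and 6 of the 22 are higher in replicate 2.

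At Gad1, the tallest distal region lay in an intron at chr2:70558241-70558420, 3.62 kb from the nearest Gad1 TSS, with heights of 2.37 and 1.70 in replicates 1 and 2. It was thus taller than the Gad1 promoter peak itself. A second region stood in the gap between 500 and 2000 bp of a start, at chr2:70561101-70561320, with 1.69 and 0.918. It lay in an intron of Gad1, 0.722 kb upstream of the TSS at 70562042. The other shared distal regions were lower, at 0.777 and 0.689 in an intron (chr2:70592473-70592706) and at 0.604 and 0.587 downstream (chr2:70629521-70629780). The 5′ part of Gad1, with the tallest distal region, this second region and the promoter peak, lies within the span of the long noncoding RNA Gad1os. DNase-seq does not tell the strands apart. The tallest distal peak of 1 library alone was one of 0.505 in replicate 1.

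At Gad2, the tallest distal region was at chr2:22721921-22722160, intergenic and 28.0 kb downstream of the gene, with 1.63 and 1.65. This was above the Gad2 promoter peak of 1.02 in replicate 1. The other shared distal regions had 0.501 and 0.493 (intergenic) and 0.414 and 0.446 (intronic), so all 3 differed little between libraries. Replicate 2 alone had peaks of 0.696 in an intron and 0.696 downstream.

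At Slc32a1, a region within the gene at chr2:158613621-158613840, 1.80 kb from the TSS of the noncoding gene Gm14205, had 1.62 and 1.61. It overlapped an exon of Slc32a1 by 1 bp or more, and how much of it is exon was not measured. Replicate 2 thus had a peak inside a gene whose promoter was listed only in its longer list. The shared distal regions were both downstream, with 2.07 and 1.26 at chr2:158653121-158653280, 37.4 kb past the gene, and 1.18 and 0.7495 at chr2:158641996-158642174. The promoter of the neighbouring gene Actr5 had 3.38 and 1.96. The tallest distal peak of 1 library alone, 0.984 in replicate 1, lay just downstream of the gene.

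At Slc6a11, a shared distal region with heights of 2.08 and 0.986 in replicates 1 and 2 lay 0.489 kb past the 3′ end of the gene at chr6:114250441-114250660. Another, in an intron of Slc6a11, had 1.15 and 1.19, so the first was lower in replicate 2 and the other was not. The tallest distal peak of 1 library alone was 0.863 in replicate 1.

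At Abat, the 3 tallest shared distal regions were intronic, with 1.64 and 1.52 (chr16:8540881-8541120), 1.33 and 1.34 (chr16:8539221-8539500) and 0.937 and 0.824. All were below the Abat promoter in both libraries. The tallest distal peak of 1 library alone was 0.473 in replicate 2.

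A footprint in both replicates was present in 22 of the 22 regions (100%, exact 95% interval 84.6 to 100%, for counting error only), against 94.0% of all shared distal regions and a mean of 95.6% in the height classes of the 22. A stretch common to the footprints of both replicates was found in 18 of the 22, against 81.2% of all. Stretches of 20 bp or more were found in 6 of the 22, against 27.6% of all. These shares were close to the background.

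The reference sequences of the tallest distal region of Gad1, Gad2, Slc32a1 and Abat, of the near-promoter region of Gad1 and Slc32a1 and of the region past the 3′ end of Slc6a11 are printed to show what lay under these footprints. Capitals mark bases in footprints of both replicates, and the letters are mm10 plus strand. The label exonic marks the region that overlaps a Slc32a1 exon at least in part. The label upstream marks the intronic Gad1 region upstream of the TSS at 70562042.
Gad1 intronic: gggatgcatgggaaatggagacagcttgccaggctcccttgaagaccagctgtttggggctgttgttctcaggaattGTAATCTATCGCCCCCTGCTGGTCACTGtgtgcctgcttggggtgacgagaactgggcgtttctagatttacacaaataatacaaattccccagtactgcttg
Gad1 upstream: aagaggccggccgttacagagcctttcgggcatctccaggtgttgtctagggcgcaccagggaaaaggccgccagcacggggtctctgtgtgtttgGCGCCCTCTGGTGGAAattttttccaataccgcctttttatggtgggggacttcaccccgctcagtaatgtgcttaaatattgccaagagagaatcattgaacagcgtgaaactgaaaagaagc
Gad2 downstream: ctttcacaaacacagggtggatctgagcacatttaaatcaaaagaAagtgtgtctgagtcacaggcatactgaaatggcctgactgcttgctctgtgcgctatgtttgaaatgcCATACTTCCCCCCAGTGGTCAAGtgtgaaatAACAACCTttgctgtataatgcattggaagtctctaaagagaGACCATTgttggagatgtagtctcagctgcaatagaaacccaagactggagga
Slc32a1 downstream: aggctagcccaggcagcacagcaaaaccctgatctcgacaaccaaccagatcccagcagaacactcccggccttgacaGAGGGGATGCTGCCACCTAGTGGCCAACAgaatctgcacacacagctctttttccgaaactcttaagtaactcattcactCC
Slc32a1 exonic: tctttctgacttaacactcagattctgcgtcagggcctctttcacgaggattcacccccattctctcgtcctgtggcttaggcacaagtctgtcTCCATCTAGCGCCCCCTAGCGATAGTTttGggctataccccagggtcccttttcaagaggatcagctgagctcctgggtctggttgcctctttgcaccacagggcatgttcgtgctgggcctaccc
Slc6a11 past 3′ end: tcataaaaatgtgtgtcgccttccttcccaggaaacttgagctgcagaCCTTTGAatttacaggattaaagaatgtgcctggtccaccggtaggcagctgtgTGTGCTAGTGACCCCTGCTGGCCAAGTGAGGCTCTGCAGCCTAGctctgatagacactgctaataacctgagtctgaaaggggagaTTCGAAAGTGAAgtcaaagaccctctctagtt
Abat intronic: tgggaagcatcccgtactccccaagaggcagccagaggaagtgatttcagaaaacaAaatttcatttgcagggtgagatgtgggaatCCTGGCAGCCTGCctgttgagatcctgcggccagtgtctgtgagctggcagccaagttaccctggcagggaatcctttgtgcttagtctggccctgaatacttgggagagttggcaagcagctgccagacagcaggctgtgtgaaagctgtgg
The Gad1 intronic, Gad1 upstream and Slc32a1 downstream sequences each hold a match to the CTCF core motif wholly in capitals. CTCF is a zinc finger protein that marks chromatin loop anchors and boundaries. The E-box CAGCTG, bound by basic helix-loop-helix factors, occurs in the Gad1 intronic, Gad2 downstream, Slc32a1 exonic, Slc6a11 3′ end and Abat intronic sequences, in each case outside or only partly within capitals. The Gad2 sequence also holds an AP-1 motif, TGANTCA, that was not wholly in capitals.

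The CTCF core lay in 4 of the 22 distal regions, against 18.4% of all shared distal regions. It lay within a footprint of both replicates in the same 4 of the 22 regions, against 16.1% of all shared distal regions. Named after their values were seen, these were the Gad1 intronic region, both Slc32a1 downstream regions and an intergenic region upstream of Abat (chr16:8494379-8494545, heights 1.01 and 0.601). The counts were near the background. The E-box CAGCTG occurred in the central 200 bp of 9 of the 22 regions, against 19.8% of all, and TAATTA, the core of many homeodomain sites, in 2 of the 22, against 4.23%. CAGATG occurred in 2 of the 22 against 23.4%, and the NFI motif TTGGCA in 4 against 18.7%. A motif match is a description of the letters and says nothing of binding.

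The rest of the GABA pathway was examined in the same way. Of 15 further genes for reuptake, breakdown and precursor supply, 12 had a promoter peak in each library, the same 12 in both, against 56.2% of all genes with one in both. Aldh5a1, which oxidises the product of GABA transaminase, had 2.76 and 1.26 in replicates 1 and 2. The transporter genes Slc6a12 and Slc6a13 had no promoter peak in any list. Among 10 genes of glutamate and glutamine supply, 9 had a promoter peak in both libraries, with heights of 0.630 to 7.22 in replicate 1 and 0.446 to 4.58 in replicate 2. Median distal density was 1.72 per 100 kb over the 15 genes and 2.01 over the 5.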

How the data were processed

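DNase-seq was measured in left cerebral cortex from 2 mice. Peaks, footprints and an FDR track were made by the authors on mm10, per the labels. The peak caller, aligner and normalization were not given in the sources used here, and the sequencing depth is unknown. Peak heights are the deposited signal values, used only to describe and rank peaks. Per replicate they are whole multiples of a step of 0.00432 or 0.00675 (100% within 0.05 of a step). The authors' deposited FDR values, read here as q-values, list only stretches under 0.05.

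From these files, overlapping peaks of 1 list were joined, peaks of both replicates overlapping by 1 bp or more were merged, and distances were taken to GENCODE M21 starts on GRCm38.p6, whose chromosome lengths fit the files' coordinates on 21 of 21 chromosomes. Genes were placed in 20 bins of equal size by observed over expected CpG, and motifs were searched in the central 200 bp of regions. Promoter sequences for motif shares came from RefSeq, which matched 4 of the 5 genes, without Abat. The peak assignment was tested on simulated data. Python 3.11.15, NumPy 2.4.6, SciPy 1.17.1, pandas 2.3.3, pysam 0.24.0 and matplotlib 3.10.9 were used.

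The genes named are the 5 genes, Slc6a12, Slc6a13 and Aldh5a1, and per gene the 3 tallest shared distal regions by geometric mean and the tallest of 1 library alone, with the gene of the nearest start where it adds to the description. Some items under this rule are not reported here. The genes and lists were chosen with earlier results of these data known. Alternatives tried were the longer lists, peaks at or above the median height, other promoter, distal and locus distances, a larger overlap and leaving out each replicate.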

Additional observations from a re-analysis of the deposited data

How the results depend on the processing

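Of 25 alternative values for the main counts, shares and ratio, 19 stayed close and 6 moved, and of 58 for single genes 44 stayed close and 14 moved. The count of genes with a promoter peak in both replicates was 1, and became 5 with the longer lists and 2 with promoters of 2000 bp. With the latter, Gad1 gained the intronic region near its promoter peak (1.69 and 0.918). Leaving out a replicate gave 1 to 5, with 5 when replicate 2 was left out. The 22 shared distal regions became 35 with the longer lists and 13 with peaks at or above the median height, and 27 to 28 when a replicate was left out. With loci of 20 kb on both sides there were 15, with 0 at Slc32a1. The share with a footprint in both replicates fell from 100% to 82.9% with the longer lists. The cause was not tested. The longer lists hold more peaks, with a median height of 0.566 against 0.915 in replicate 1 and 0.486 against 0.689 in replicate 2. The sources used here do not say how the shorter and longer lists were made to differ. No paired analysis was possible because both samples belong to 1 group. With peaks at or above the median height the Slc6a11 promoter had no peak in either library and gave no value. With 2 libraries of unknown depth, a missing peak is one not listed, and whether the site was closed is not measured.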

Other observations

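Some neighbouring genes in the Gad1 and Abat loci had promoter peaks in both libraries. Erich2, upstream of Gad1, had a promoter peak of 1.35 in replicate 1 and 0.425 in replicate 2. In the Abat locus, Mettl22 had 3.76 and 2.07, a start shared by Pmm2 and Tmem186 had 2.91 and 2.67, and Carhsp1 had 1.52 and 0.655. These genes were named after their values were seen.

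Among 12 inhibitory neuron markers, 8 had a promoter peak in both libraries, against 56.2% of all protein-coding genes. The transcription factor gene Dlx1 had 1.62 and 1.12, Dlx5 had 1.205 and 1.35, and Dlx6 had 1.70 and 1.65, and these were in the shorter lists of both libraries. Dlx2 had none in either shorter list, with 1.205 and 0.689 in the longer lists, and Lhx6 had 0.367 in the longer list of replicate 1 alone. The neuropeptide genes Sst and Vip had no promoter peak in either list of either library. Of 8 excitatory neuron markers, Slc17a7, the vesicular glutamate transporter gene, had 1.21 in replicate 1 and a peak only in the longer list of replicate 2, at 0.7495, as Slc32a1 did. These marker genes were also named after their values were seen.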
